A study of Mus musculus with 12 samples.

Results

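Aldh1a3, Cyp26b1 and Stra6l act at successive steps of retinoid handling, and their transcripts were followed in mammary tumors of mice given an agonist of the retinoid X receptor (RXR). The genes were chosen by name as a retinaldehyde dehydrogenase, a retinoic acid hydroxylase and a retinol receptor-like protein. All 3 were found, among 2876 genes in the deposited tables, 2 of them in the V-125 table of 1589 genes and 3 in the bexarotene table of 1784 genes. Female MMTV-Neu mice, in which the mouse mammary tumor virus promoter drives the Neu (HER2) oncogene mainly in mammary epithelium, were fed a control diet, V-125 or bexarotene, each agonist at 100 mg/kg diet, for 10 days once a tumor had formed. All groups carried the transgene, all groups received powdered chow with the same vehicle, and 4 tumors per group, 12 in all, were sequenced. Ages were not given in the sources used here. Bexarotene is an RXR agonist in clinical use, and V-125 is a newer RXR agonist.

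Retinol enters cells through membrane receptors or by diffusion and is oxidized reversibly to retinaldehyde by retinol dehydrogenases. Retinaldehyde dehydrogenases of the ALDH1A family then make retinoic acid irreversibly, and enzymes of the CYP26 family clear retinoic acid by hydroxylation. Retinoic acid acts through retinoic acid receptors (RAR), which bind DNA as partners of RXR. In many tissues genes of retinoid storage and breakdown, Cyp26a1 among them, respond to retinoic acid, as does the receptor gene Rarb.

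The V-125 table held read counts, normalized counts (reads divided by 1 size factor per tumor) and FPKM (reads scaled to gene length and to the reads of the tumor) in each of 8 tumors, with 15571690 to 22574865 reads per tumor counted on genes. For bexarotene the authors' group means of normalized counts were used, which have no spread between tumors, so no test, error or interval is given for any bexarotene value. Both comparisons used the same 4 control tumors. Their means in the bexarotene table were 0.9925 to 0.9961 times those in the V-125 table, over the 358 shared genes with a control mean of at least 100. Neither table goes beyond an unadjusted p-value of 0.05 in the authors' own test. Every listed gene had thus been selected on the difference described here, and a gene that is not listed is not shown to be unchanged. The luminal markers Epcam and Cdh1 were abundant in every tumor, at 28485 to 53468 and 4565 to 9150 normalized counts. One tumor, V-125 replicate 1, stood apart: 73 of the 1589 listed genes were over 3 times higher there than in every other tumor, against 0 to 21 genes in the other tumors.

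**Figure D1:**
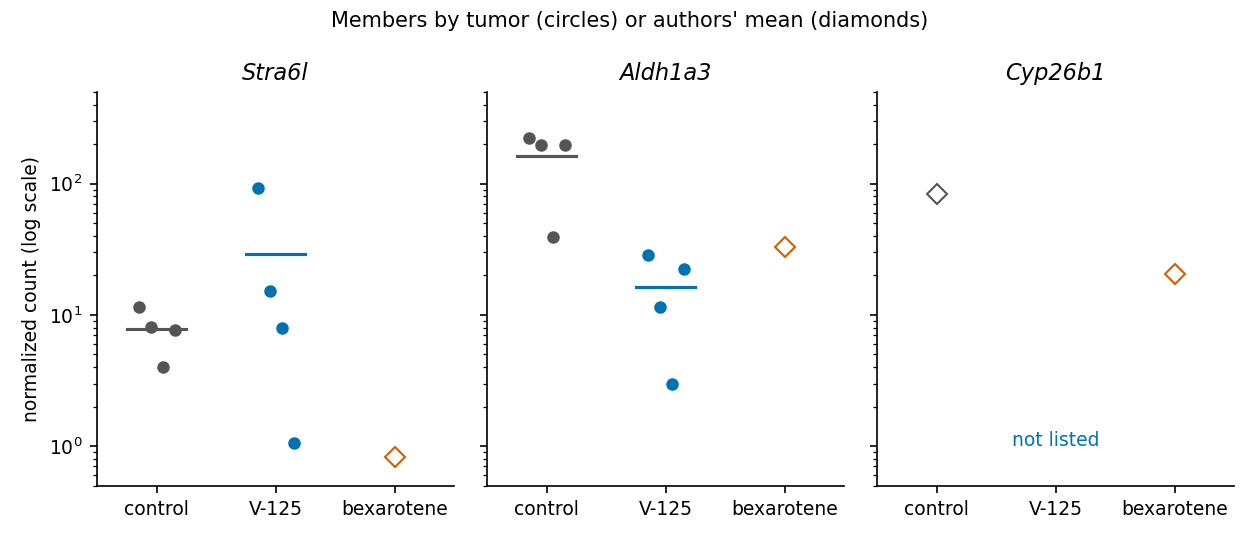
Normalized counts (log axis) of Stra6l, Aldh1a3 and Cyp26b1. Circles are single tumors, horizontal lines are means of 4 tumors, and open diamonds are the authors' means without a spread. The 4 V-125 tumors lie below all 4 control tumors for Aldh1a3, while for Stra6l they range from 1.06 to 93.0 around the control tumors.

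Stra6l encodes a membrane protein related to the retinol receptor STRA6 that binds retinol-binding protein. It lies on the plus strand of mouse chromosome 4 (GRCm38, 45848664 to 45887008), and its longest coding transcript has 19 exons, 3669 bases and a coding length of 1863 bases. Stra6l measured 93.0, 15.2, 7.94 and 1.06 normalized counts across V-125 replicates 1 to 4. In the control replicates, in the same order, it measured 11.5, 8.09, 3.99 and 7.68. The highest and the lowest of the 8 values were both in V-125 tumors, 2 V-125 tumors lay above every control tumor, and the groups overlapped.

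The mean Stra6l level was 7.82 ± 3.08 (SD, n = 4) normalized counts in control tumors and 29.3 ± 42.9 (SD, n = 4) under V-125, a difference within the spread (two-sided exact permutation test, p = 0.457). These values rested on 91, 16, 8 and 1 reads with V-125 and on 10, 7, 5 and 9 reads in control tumors, and the single read has a 95% Poisson interval of 0.0253 to 5.57 reads, which covers counting error only. Stra6l had too few reads to pass the filter of the edgeR fit. In the fit without a filter its log2 fold change was 1.91 (SE 1.06, adjusted p = 0.977, edgeR), and it was 0.06 without V-125 replicate 1, where the mean of the other V-125 tumors was 8.07. The higher mean thus rested on 1 tumor.

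With bexarotene the authors' mean for Stra6l was 0.824 normalized counts, against their control mean of 7.78. Summed over 4 tumors this is 3.3 normalized counts, close to the smallest amount that these libraries can show, and no fold is given. The order of the means was V-125, control and bexarotene, but the V-125 and control tumors overlapped and the lowest V-125 tumor, at 1.06, was near the bexarotene mean.

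Aldh1a3, a retinaldehyde dehydrogenase that makes retinoic acid and is known in breast as a source of aldehyde dehydrogenase activity in stem-like cells, had V-125 and control tumors that lay apart, unlike Stra6l, the other gene with values in single tumors. It lies on the minus strand of chromosome 7 (GRCm38, 66390890 to 66427517), and its longest coding transcript has 13 exons, 3443 bases and a coding length of 1536 bases. Aldh1a3 measured 28.6, 11.4, 2.98 and 22.2 normalized counts across V-125 replicates 1 to 4. In the control replicates, in the same order, it measured 224, 197, 39.1 and 196. All V-125 tumors were below all control tumors, and control replicate 3 was far below the other control tumors, yet above the highest V-125 tumor.

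The mean of Aldh1a3 was 164 ± 84.2 (SD, n = 4) normalized counts in control tumors and 16.3 ± 11.4 (SD, n = 4) under V-125, 10.1-fold lower. The two-sided exact permutation test gave p = 0.0286, the smallest that 4 tumors against 4 can give. Groups that do not overlap, with V-125 lower, were found for 279 of the 1589 listed genes, or 17.6%, so that the absence of overlap is common among genes selected in this way. The difference rested on 28, 12, 3 and 21 reads with V-125 and on 194, 170, 49 and 230 reads in control tumors. The lowest count, 3 reads, has a 95% Poisson interval of 0.619 to 8.77 reads.

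In the edgeR quasi-likelihood fit, the log2 fold change of Aldh1a3 was −3.32 (SE 0.71), with an unadjusted p of 0.000909 and an adjusted p of 0.466, and 2 of the 1333 fitted genes had a larger decrease. With the adjusted p, edgeR called 0 of 1333 genes, 0.0%. At an unadjusted p under 0.05 it called 957 genes, 71.8%, of which 471 were lower with V-125, 35.3%. Limma-voom also called 0 genes after adjustment. DESeq2 called 124 genes after adjustment, 9.3%, of which 54 were lower, 4.05%. Aldh1a3 was among the latter, with a log2 fold change of −3.33 (SE 0.68, adjusted p = 0.000889, DESeq2). The call of Aldh1a3 thus depended on the tool, while its log2 fold change stayed between −3.75 and −2.97 when any 1 tumor was left out of the edgeR fit.

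With bexarotene the authors' mean of Aldh1a3 was 33.2 normalized counts, against their control mean of 163, which is 4.91-fold lower. A mean under 1/4 of control was found for 210 of the 1784 listed genes, 11.8%. Beside the same control tumors, V-125 gave 0.0994 of the control level and bexarotene 0.204. The bexarotene mean of 33.2 was above the highest of the 4 V-125 tumors, 28.6, but the spread of the bexarotene tumors was not used here, and whether the agonists differ was not tested.

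Cyp26b1 encodes a P450 enzyme that hydroxylates retinoic acid and so ends its action. It lies on the minus strand of chromosome 6 (GRCm38, 84571414 to 84593908), and its longest coding transcript has 6 exons, 4495 bases and a coding length of 1536 bases. The authors' mean for Cyp26b1 was 20.5 normalized counts with bexarotene, against 83.9 in control tumors, 4.09-fold lower. Cyp26b1 was not among the genes of the V-125 table, so it has no value here in single tumors, and whether V-125 acts on it was not analysed. Bexarotene means below 1/2 of control were found for 507 of 1784 listed genes, 28.4%, and Aldh1a3 and Cyp26b1 were among them.

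Because retinoic acid receptors act at direct repeats in the promoters of Cyp26a1 and Rarb, the sequence just upstream of Cyp26b1 is shown with those repeats for comparison. The Cyp26b1 stretch ends 1 base before the first start in the GENCODE annotation (chr6:84593909-84594060, minus strand). Capitals mark TATAAA, which begins 41 bases before that start. For Rarb (chr14:16575513-16575529, minus strand) and Cyp26a1 (chr19:37697776-37697792, minus strand) capitals mark the half-sites, which are 5 bases apart. All are RefSeq sequences of GRCm38.p6, printed 5′ to 3′.
Cyp26b1: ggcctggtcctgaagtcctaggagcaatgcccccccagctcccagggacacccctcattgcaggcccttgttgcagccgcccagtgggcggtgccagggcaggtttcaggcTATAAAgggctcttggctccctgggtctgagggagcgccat
Rarb: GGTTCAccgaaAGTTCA
Cyp26a1: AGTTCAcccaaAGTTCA

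The half-sites searched on both strands were AGGTCA or AGTTCA or GGGTCA or GGTTCA, in windows of 300 bases around the start of each gene. At least 1 half-site occurred in 43.7% of 32851 windows, and a direct repeat with a spacing of 5 bases in 32 windows, 0.0974%. The windows of Cyp26b1 and Stra6l held no half-site, and so none of the repeats with a spacing of 1, 2 or 5 bases either. No window was available for Aldh1a3, so it was not searched. TATAAA occurred, on either strand, in 13.6% of the windows, with Cyp26b1 and Stra6l among the genes that had it. For Stra6l it was not in the 98 bases of window before the first GENCODE start, unlike for Cyp26b1. The direct repeats began 53 bases before the RefSeq start of Rarb and 32 bases before that of Cyp26a1. The Cyp26b1 distance was measured from a GENCODE start instead, so it is not on the same footing. Neither Rarb nor Cyp26a1 was listed in either table, and these matches are descriptions of letters, not of binding.

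**Figure D2:**
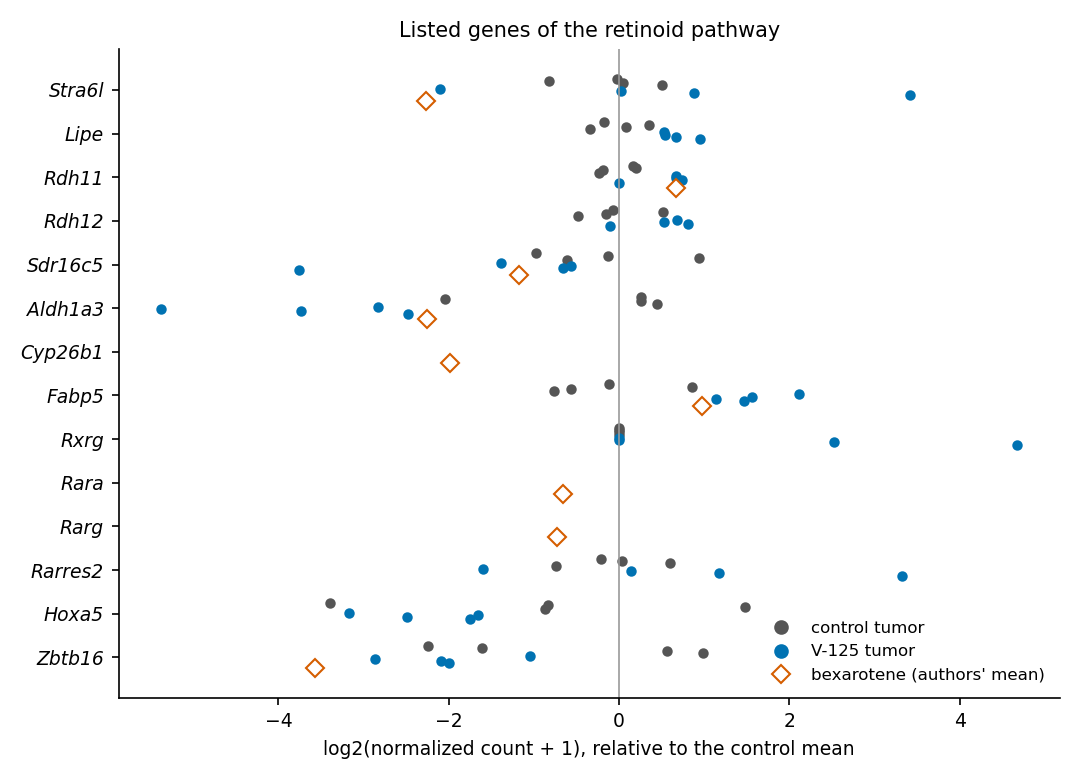
The 14 retinoid pathway genes listed in either table, as log2(normalized count + 1) minus that of the control mean. Gray and blue circles are single control and V-125 tumors, and open diamonds are the authors' bexarotene means. Aldh1a3 lies left of its control tumors with V-125 and Fabp5 right of them, without overlap.

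Of a list of 74 genes of retinoid uptake, metabolism, binding and signaling, 11 were in the V-125 table, 9 in the bexarotene table, 14 in either and 60 in neither. With V-125, 7 of the 11 had a higher and 4 a lower mean than control, where 51.4% of all listed genes had a higher mean, and these counts were 7 and 4 without V-125 replicate 1 as well. The median log2 ratio of the means was 0.54, beside 0.36 over all listed genes. Of the 9 that passed the edgeR filter, 0 were called after adjustment, and 3 higher and 3 lower genes had an unadjusted p under 0.05, beside 36.5% and 35.3% of all fitted genes. The groups did not overlap for 3 of the 11, Aldh1a3, Fabp5 and Lipe, as for 38.6% of all listed genes, or 47.8% of them without V-125 replicate 1. DESeq2 called 2 of them, Aldh1a3 and Fabp5, beside 9.3% of all fitted genes. With bexarotene, 2 of 9 genes had a higher authors' mean and 7 a lower one, where 43.3% of all listed genes had a higher mean. The median log2 ratio was −1.18, beside −0.56 over all listed genes.

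Among the other genes of retinol uptake and storage, Lipe, which encodes hormone-sensitive lipase, an enzyme that hydrolyzes retinyl esters as well as fat, was listed for V-125. Lipe had 608, 501, 459 and 454 normalized counts across V-125 replicates 1 to 4. Its control replicates were at 248, 332, 400 and 278. All V-125 tumors were above all control tumors, with a ratio of means of 1.61, and edgeR gave an adjusted p of 0.645.

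Of 21 genes of retinol and retinaldehyde interconversion, 3 were listed. Rdh11 and Rdh12 encode reductases of retinaldehyde, and Sdr16c5 encodes a retinol dehydrogenase. Rdh11 had 928, 1548, 1478 and 1478 normalized counts with V-125, and 790, 813, 1069 and 1037 in control tumors. Rdh12 had 1022, 1929, 1587 and 1755 with V-125, and 784, 988, 1570 and 1047 in control tumors. For both genes the V-125 mean was higher, by 1.46 and 1.43 times, and V-125 replicate 1 lay among the control tumors. Sdr16c5 had 8.18, 77.9, 83.4 and 46.5 normalized counts with V-125, and 80.7, 238, 113 and 62.3 in control tumors, with overlap. The authors' bexarotene mean was 1463 for Rdh11, against 922 in control tumors, and 54.1 for Sdr16c5, against 123.

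Aldh1a3 was the only listed gene of the 7 of retinaldehyde oxidation, and Cyp26b1 the only listed gene of the 6 of retinoic acid hydroxylation and conjugation. Among 3 genes of retinoic acid binding, Fabp5, a fatty acid-binding protein that also carries retinoic acid, was listed. Fabp5 had 1523, 1216, 1631 and 2380 normalized counts across V-125 replicates 1 to 4. Its control replicates were at 325, 373, 995 and 508. All V-125 tumors were above all control tumors, as for 335 of the 1589 listed genes, 21.1%. The ratio of means was 3.07, and the log2 fold change was 1.61 (SE 0.36, unadjusted p = 0.00129, adjusted p = 0.466, edgeR) with a DESeq2 adjusted p of 0.00711. The authors' bexarotene mean was 1073, against 547 in control tumors.

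Of 7 receptor genes, 3 were listed. Rara and Rarg, which encode retinoic acid receptors, were listed for bexarotene, with authors' means of 253 and 782 normalized counts, against 399 and 1301 in control tumors. Rxrg, which encodes an RXR, was listed for V-125 with 24.5, 4.75, 0 and 0 normalized counts in V-125 replicates 1 to 4 and 0 in every control tumor. Its reads thus came from 2 of the 4 V-125 tumors, mainly from the tumor that stood apart.

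Of 11 genes known to respond to retinoic acid, 3 were listed, and the groups overlapped for each. Zbtb16, which encodes a zinc finger repressor, had 22.5, 20.9, 11.9 and 44.4 normalized counts with V-125, and 185, 138, 29.6 and 18.8 in control tumors. Hoxa5, which encodes a homeobox factor, had 10.2, 5.7, 10.9 and 3.17 with V-125, and from 2.56 to 104 in control tumors. Rarres2, which encodes the chemoattractant chemerin, had 189, 41.8, 19.9 and 5.29 with V-125, and 10.4, 27.7, 18.4 and 15.4 in control tumors. The means of Zbtb16 and Hoxa5 were lower and that of Rarres2 was higher with V-125, the last through V-125 replicate 1. The authors' bexarotene mean of Zbtb16 was 6.86, against 92.2 in control tumors.

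**Figure D3:**
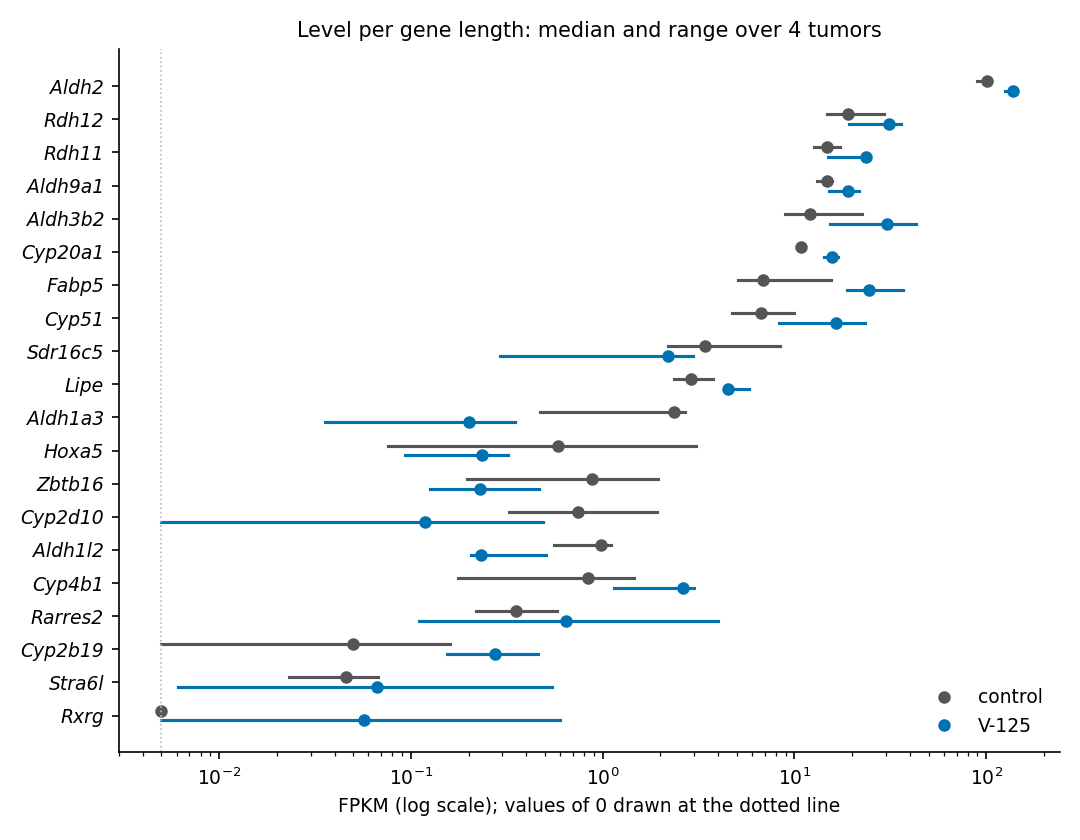
FPKM (log axis) of the listed retinoid, aldehyde dehydrogenase and P450 genes in control (gray) and V-125 (blue) tumors, sorted by the control mean. Circles are medians and lines run from the lowest to the highest of 4 tumors. Aldh1a3 stands in the middle of the control order and Stra6l near its lower end.

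On the scale per gene length, the FPKM level of Aldh1a3 was 1.97 ± 1.01 (SD, n = 4) in control tumors, from 0.47 to 2.7, and 0.196 ± 0.138 (SD, n = 4) under V-125, from 0.0356 to 0.347. In control tumors it ranked 11 of 20 listed retinoid, aldehyde dehydrogenase and P450 genes, next to Lipe, at 2.96, and Hoxa5, at 1.08, whose ranges it overlapped. Of all 1589 listed genes, 41.7% had a lower control FPKM than Aldh1a3. Stra6l was at 0.0232 to 0.0671 FPKM in control tumors and 0.00612 to 0.544 with V-125, and 4.78% of listed genes had a lower control FPKM. Its gene length in the file, 9567 bases, joins the exons of all its transcripts, so FPKM based on it is low beside a value based on the coding transcript alone.

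Aldehyde dehydrogenases, Aldh1a3 included, did not share one direction. Of 5 listed for V-125, 3 had a higher mean (Aldh2, Aldh3b2 and Aldh9a1) and 2 a lower one (Aldh1a3 and Aldh1l2). Of 6 listed for bexarotene, 4 had a higher authors' mean (Aldh3b2, Aldh6a1, Aldh7a1 and Aldh9a1) and 2 a lower one, again Aldh1a3 and Aldh1l2. Aldh1l2, a mitochondrial enzyme of folate metabolism, had 28.6, 69.3, 27.8 and 33.8 normalized counts with V-125, and 127, 149, 75.1 and 137 in control tumors. The groups did not overlap, with V-125 lower, as for 17.6% of all listed genes. DESeq2 gave an adjusted p of 0.0201 where edgeR gave 0.494. Its authors' bexarotene mean was 45.5, against 121 in control tumors. Aldh2, which clears acetaldehyde, had a control level of 99.3 FPKM, 50.4 times that of Aldh1a3, and its V-125 level was 136 FPKM. Its normalized counts were higher in every V-125 tumor than in every control tumor, as for 21.1% of all listed genes. DESeq2 gave Aldh2 an adjusted p of 0.0263 where edgeR gave 0.645.

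Among P450 genes, 5 were listed for V-125, 4 with a higher mean (Cyp20a1, Cyp2b19, Cyp4b1 and Cyp51) and 1 with a lower one (Cyp2d10). Of 7 listed for bexarotene, 4 had a higher authors' mean and 3 a lower one, Cyp26b1, Cyp2d22 and Cyp2d9. Cyp26b1, at 0.245 of the control mean, was thus one of the lower genes of this family beside Cyp2d9 at 0.236 and Cyp2d22 at 0.558. Cyp51, a sterol demethylase of cholesterol synthesis, had 655, 1342, 1291 and 1846 normalized counts with V-125, and 419, 375, 788 and 649 in control tumors, and its authors' bexarotene mean was 1120, against 554. Cyp20a1 was higher in every V-125 tumor than in every control tumor, as for 21.1% of all listed genes. DESeq2 gave it an adjusted p of 0.0151 where edgeR gave 0.576. The Cyp2d genes are close copies of each other, so their reads are uncertain.

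Markers of several cell types differed between the same tumors as Aldh1a3. Of 6 alveolar secretory markers, 3 were listed for V-125 (Csn1s1, Wap and Lcn2), with a summed level of 60829 to 273822 normalized counts with V-125 and 303197 to 654044 in control tumors. Of 7 basal and myoepithelial markers, 2 were listed (Acta2 and Trp63), with a summed level of 97.3 to 609 with V-125 and 525 to 1032 in control tumors, or 97.3 to 226 without V-125 replicate 1, in which Trp63 was at 0. Of 11 luminal markers, 5 were listed (Epcam, Cdh1, Cldn3, Cldn4 and Cldn7), with a summed level of 45052 to 55119 with V-125 and 59901 to 85579 in control tumors. All of these epithelial markers had a lower mean with V-125. Control replicate 3, the lowest control tumor for Aldh1a3, was also the lowest control tumor for each of the 3 sums, which the most abundant genes dominate. Of the single markers, Wap and Cldn3 were instead lowest in control replicate 4, at 33.3 and 10337 against 178 and 11523 in control replicate 3. The other listed epithelial markers were lowest in control replicate 3, some only narrowly. Epcam and Cldn7 were at 37941 and 3303 there, against 38238 and 3322 in control replicate 4. Cldn4 was at 1698 there, against 1747 in control replicate 2. Outside the epithelium, Kdr, 1 of 6 endothelial markers, was at 538 to 835 normalized counts with V-125 and 251 to 498 in control tumors. Itgam, 1 of 8 leukocyte markers, was at 30.7 to 60.6 with V-125 and 65.5 to 89.0 in control tumors. Kdr was thus higher and Itgam lower in every V-125 tumor than in every control tumor, as were 21.1% and 17.6% of all listed genes. Of 5 skeletal muscle markers Myh4 was listed, at 20.9 and 4.23 in V-125 replicates 3 and 4 and at 0 in the other tumors, and none of the fibroblast or adipocyte markers was listed. Their part in the result was not tested. In tumor RNA, fewer cells of a type and less RNA per cell cannot be told apart.

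The same lists in the bexarotene table held lower authors' means for Csn2 and Wap, 2 of 6 alveolar markers, whose means summed to 13336 against 66737 in control tumors. Of 11 luminal markers, 5 were listed and lower, with summed means of 35732 against 54742. Of 7 basal markers, Krt17 and Oxtr were lower and Myh11 was higher. Fabp4 and Plin4, 2 of 7 adipocyte markers, were higher, with summed means of 583 against 169. Pdgfrb, 1 of 7 fibroblast markers, was lower, at 470 against 786, and Csf1r and Itgam, 2 of 8 leukocyte markers, were lower, with summed means of 487 against 882. No endothelial or skeletal muscle marker was listed. Their part in the lower Aldh1a3 and Cyp26b1 means was not tested.

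**Figure D4:**
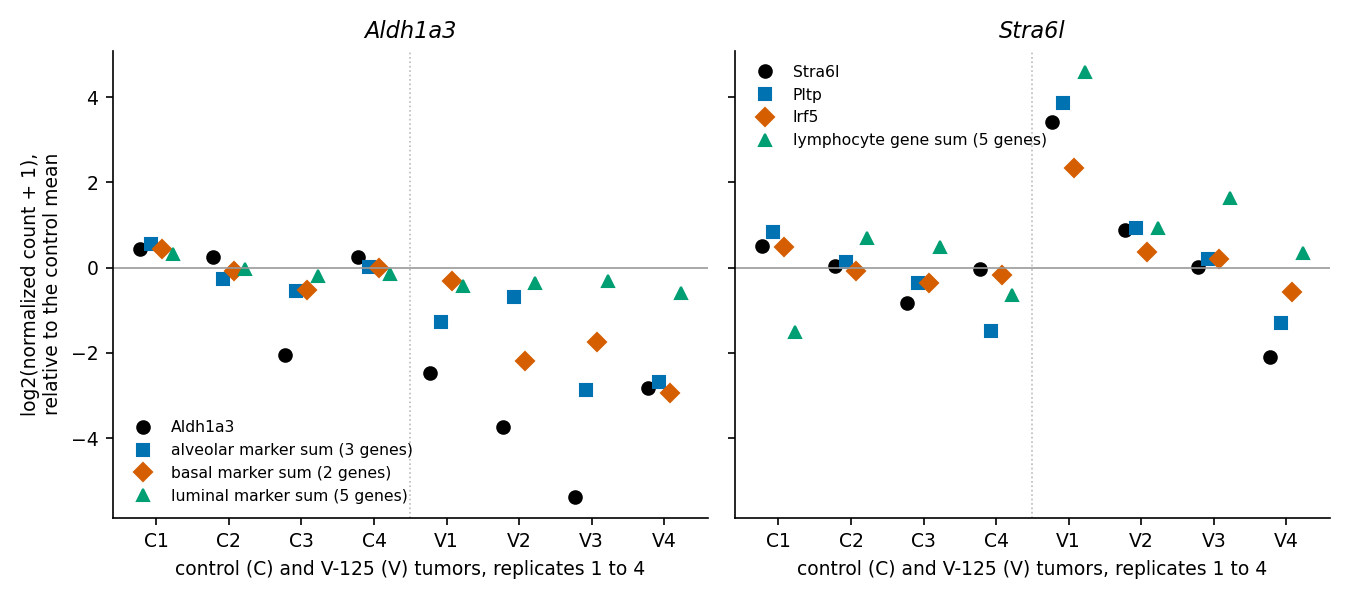
Aldh1a3 with marker sums (left) and Stra6l with other genes (right) in each control (C) and V-125 (V) tumor, as log2(normalized count + 1) minus that of the control mean. Aldh1a3 lies below the 3 marker sums in V-125 replicates 1 to 3. Stra6l, Pltp, Irf5 and the lymphocyte sum are all highest in V-125 replicate 1. Pltp and Irf5 were picked for likeness to Stra6l over these tumors and the lymphocyte genes after their values were seen, so the shared peak follows from that choice.

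The genes most like Aldh1a3 over the 8 tumors were sought by the mean absolute difference of centered log2(normalized count + 1), among 1371 listed genes with a mean of at least 10 normalized counts. They were Plscr4, a phospholipid scramblase, at 0.87 on the log2 scale, and the predicted genes Gm35021 at 0.90 and Gm42992 at 0.92, with a median of 1.86 over the genes. Plscr4 had 16.4, 5.7, 3.97 and 13.7 normalized counts with V-125, and 85.3, 40.5, 13.6 and 12.8 in control tumors, and its groups overlapped.

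For Stra6l the nearest genes had smaller differences. They were Pltp, a phospholipid transfer protein, at 0.41, Rarres2 at 0.46 and Irf5, an interferon regulatory factor of immune cells, at 0.52, with a median of 1.12 over the genes. Pltp had 982, 128, 76.5 and 26.4 normalized counts across V-125 replicates 1 to 4, and its control tumors were at 119, 72.8, 51.9 and 23.0. Like Stra6l, these genes were highest in V-125 replicate 1. In that tumor 5 lymphocyte genes chosen after their values were seen (Cd2, Cd28, Icos, Pou2af1 and Bank1) summed to 619 normalized counts, against 31.7 to 79.4 in the other V-125 tumors and 8.07 to 40.5 in control tumors. The leukocyte marker Itgam was at 31.7 in that tumor, below every control tumor, as it was in the other V-125 tumors too. Their part in the Stra6l value of that tumor was not tested.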

How the data were processed

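RNA of mammary tumors was sequenced from polyA-enriched libraries. The submitters' processing notes name STAR (2.6.1d), featureCounts (1.5.0-p3) and limma, and the genome build is not given in the sources used here. For V-125 and control tumors the authors deposited raw read counts, normalized counts (a signal, in which a tumor's counts share 1 divisor), FPKM and gene lengths in bases. For bexarotene the authors deposited group means of normalized counts, and no value of a single bexarotene tumor was analysed. The authors also deposited fold changes, p-values and adjusted p-values. Of these, only p-values and adjusted p-values were read, to find the listing limit of 0.05 and the number of genes tested, which was 15310 for V-125 and 18687 for bexarotene.

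Groups and replicate numbers came from the sample labels. Library totals were recovered from counts, FPKM and gene length. Counts of all listed genes were fitted with edgeR 4.0.16 (quasi-likelihood, filterByExpr, recovered totals as library sizes), after tests on simulated data, and p-values were adjusted by Benjamini-Hochberg over 15310 tests. Their variance estimates rest on listed, that is selected, genes only. Each SE printed for edgeR was derived from the test, as the absolute log2 fold change over the square root of the quasi-likelihood F. The SE printed for DESeq2 is the tool's own. Alternatives were DESeq2 1.42.0, limma-voom 3.58.1, TMM, the deposited size factors, no filter, adjustment over listed genes, a replicate block and leaving out each tumor, in R 4.3.3. Normalized counts of single genes were compared by a two-sided exact permutation test over 70 assignments (Python 3.11.15, scipy 1.17.1). No test was made for bexarotene. Of the 1589 gene identifiers for V-125, GENCODE (GRCm38) holds 1583, of which 1532 have identical coordinates. Cyp26b1 was located by name, since the bexarotene table gives names only. No annotated gene overlaps Stra6l, Aldh1a3 or Cyp26b1.

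Named were Aldh1a3, Cyp26b1 and Stra6l, every listed gene of the retinoid list, listed Aldh and Cyp genes, and the 3 nearest genes per gene. These genes, lists and rules were chosen with earlier results of these data known. The tumors of a group are separate mice, so p-values measure the spread between mice. Depth limits Stra6l, at 1 to 91 reads per tumor.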

Additional observations from a re-analysis of the deposited data

Results flagged for a closer look

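Among 49 groups of 4 tumors (25 named genes), 6 held a tumor whose gap to its nearest neighbor was past Dixon's 95% critical value, where chance gives about 1 in 20. Aldh1a3 was at 39.1 normalized counts in control replicate 3, low beside the other control tumors (gap 0.852 of the range). Aldh1l2 was at 69.3 in V-125 replicate 2, high beside the other V-125 tumors. The other 4 were all in V-125 replicate 1, where Stra6l (93.0), Pltp (982) and Irf5 (476) were high and Rdh11 (928) was low beside the other V-125 tumors. Pltp and Irf5 had been picked for their likeness to Stra6l over these tumors, so their values repeat that of Stra6l and the number of such groups is not to be read against chance.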

How the results depend on the processing

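Aldh1a3 stayed lower with V-125 in all 15 alternatives to the edgeR fit. It passed the adjusted threshold with DESeq2 (−3.33) and with adjustment over the listed genes alone (−3.32, adjusted p = 0.0406, edgeR), and leaving out each tumor gave −3.75 to −2.97 with an adjusted p of 0.375 to 1. The count of genes called, 0 in the edgeR fit, was 124 with DESeq2, 121 with adjustment over the listed genes, and 0 to 1 with each tumor left out, the 1 without control replicate 3. For the retinoid list it was 2 with DESeq2 and 2 with adjustment over the listed genes. The Aldh1a3 difference in mean normalized count, −148, was −189 to −128 with each tumor left out, and its exact permutation p was 0.0571 without any 1 V-125 tumor, although the groups still did not overlap. With a pseudocount of 1 on the authors' means, the bexarotene log2 ratios were −2.26 for Aldh1a3 and −1.98 for Cyp26b1, in place of −2.3 and −2.03. For Stra6l it was −2.27, a value set largely by the pseudocount at a mean this low and not to be read as a fold. The Stra6l fits without the filter were chosen after the data were seen and gave 0.06 to 2.31 with each tumor left out. The retinoid list directions, the share of genes without overlap and the marker sums without V-125 replicate 1 were also added after the data were seen. Cyp26b1 has no V-125 value, so no alternative could be run for it in that comparison.

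The replicate numbers do not pair the tumors, which are different mice. Deviations of tumors with the same number correlated at −0.17 to 0.09, and 1 of 4 V-125 tumors correlated best with its own number. With a replicate block the Aldh1a3 log2 fold change was −3.43 (adjusted p = 0.349, edgeR), that of Stra6l was 0.86, and 0 genes were called.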
